A study of Schizosaccharomyces pombe with 127 samples.

Results

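The genes urg1, urg2 and urg3 of the fission yeast Schizosaccharomyces pombe were followed through 60 min of nitrogen starvation in 62 gene deletion strains and a wild type. They were chosen by name, as the uracil-regulatable genes, and make up 3 of the 4929 features measured, each with 2 probes. The choice was made with their large change in these data known, so their levels and changes are given as a description, without a test. Tests are given for other genes only.

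The series holds 127 arrays of total RNA. Each of 63 deletion strains was sampled once in log-phase growth in minimal medium with nitrogen (0 min). Of these, 62 were sampled once more after 60 min without nitrogen, and hal4 was measured at 0 min only. In 59 strains the deleted gene encodes a protein kinase or kinase subunit, or is labelled so, and the other 4 strains lack cyr1, cgs1, rst2 or atf1. The wild type has 1 array per time, and its 60 min array is titled wild type while another label field calls it a kinase deletion. All arrays carry strain RNA in Cy5 against a pool of wild-type RNA in Cy3, whose growth condition the labels do not state. A level below is the log2 ratio of strain to pool after the array median was set to 0, and a change is the 60 min level minus the 0 min level of the same strain. A strain has no biological replicate, so a value of 1 strain cannot be separated from the error of its pair of arrays.

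As a check of the labels, 52 of 62 strains with a probe for the deleted gene had the lowest level of that gene of all strains at 0 min, and 47 of 61 had it after starvation. No probe was matched to the gene deleted in ppk18, so the labels of that strain could not be checked. In 6 strains the 60 min array does not show the deletion although the 0 min array does, and those 60 min labels are in doubt. These are the arrays labelled ppk22, cdk11, byr1, ppk33, srb10 and atf1. In 8 more strains, chk1, hri1, mde3, mug27, ppk38, spo4, srk1 and wis1, the deleted gene was the lowest at neither time, so these arrays do not show their deletion. In cmk2 and ppk15 it was the lowest at 60 min only, and both strains were kept throughout. Over all probes, 9 of 2016 pairs of 0 min arrays had an r under -0.3, down to -0.42, and the smallest r between starved arrays was 0.65. The direction of each ratio follows the dyes in the labels.

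As background, fission yeast was found to switch the urg genes on when uracil is added to the medium, and the urg1 promoter is used as a fast uracil-inducible promoter. The protein of urg1 resembles GTP cyclohydrolase II, the entry enzyme of riboflavin synthesis, urg2 encodes a uracil phosphoribosyltransferase, an enzyme that turns uracil into UMP, and urg3 encodes a conserved fungal protein. Counterparts of these genes in the budding yeast Lachancea kluyveri belong to a pathway that breaks down uracil and lets that yeast use it as a nitrogen source. Cells can make pyrimidines from small precursors or salvage them from uracil, uridine and cytidine, and yeasts short of ammonium turn to other nitrogen sources such as amino acids and purines.

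The largest and the second largest mean changes of all 4929 features belonged to urg1 and urg2. The level of urg1 at 0 min was -0.90 in the lowest strain, rst2, with a median of -0.07 and a highest value of 0.40 in cki2 (-0.12 ± 0.29, SD, n = 62 strains). At 60 min its level was 2.90 in the lowest strain, ppk22, with a median of 6.24 and a highest value of 6.76 in dsk1 (5.95 ± 0.79, n = 62). The highest 0 min level of urg1 therefore lay far below its lowest 60 min level, and the 2 times did not overlap. How many of the 4929 features likewise had no overlap was not counted, so this has no background beside it. The change of urg1 ran from 2.94 in ppk22 through a median of 6.31 to 7.16 in lsk1, and its mean of 6.07 ± 0.77 corresponds to a 67.3-fold higher ratio. In 58 of the 62 strains the change was 5 or more, and in 2 strains, ppk22 and cyr1, it was under 4.

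For urg2 the 0 min level ran from -1.14 in atg1 through a median of -0.06 to 0.57 in cyr1 (-0.07 ± 0.30, n = 62; 61 strains have both times). Its 60 min level was 2.86 in cyr1, the lowest strain, 6.31 at the median and 6.76 in ckk2, the highest (5.91 ± 0.93, n = 61). The 2 times again did not overlap, and here too the share of all features without overlap was not counted. The change of urg2 ran from 2.29 in cyr1 through a median of 6.33 to 7.15 in lsk1, with a mean of 5.97 ± 1.00 or 62.8-fold. In 4 strains it was under 4, and in 55 of 61 it was 5 or more. Between strains urg2 varied more than urg1: its SD ranked 22 among all features and that of urg1 ranked 78.

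As the mean of its 2 probes, which differed, the change of urg3 was smaller, and ranked 90 of 4929. Its 0 min level lay in a narrow band, from -0.22 in cki3 through a median of 0.07 to 0.29 in cki2 (0.06 ± 0.12, n = 62). Its 60 min level was 0.25 in cyr1, 2.30 at the median and 3.07 in tea5 (2.14 ± 0.65, n = 62). On this mean of probes the times met, since cyr1 at 60 min lay just below cki2 at 0 min. On probe 2 alone they came close without overlap, with 0.71 in ppk26 as the highest 0 min level and 0.74 in cyr1 as the lowest 60 min level. Each strain was nevertheless higher at 60 min than at 0 min, by 0.42 in cyr1 up to 2.95 in ppk25, with a median of 2.24 and a mean of 2.08 ± 0.63 or 4.24-fold. A change of 2 or more was found in 45 strains, and one under 1 in 7. Without the 6 doubted arrays the mean changes were 6.13 ± 0.65 for urg1, 6.03 ± 0.94 for urg2 and 2.15 ± 0.61 for urg3. Without those and the 8 strains lowest at neither time they were 6.10 ± 0.68 (n = 48), 6.01 ± 1.00 (n = 47) and 2.11 ± 0.64 (n = 48). Under quantile normalization, which forces all arrays to 1 distribution, the means were 4.01, 3.88 and 1.25.

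**Figure D1:**
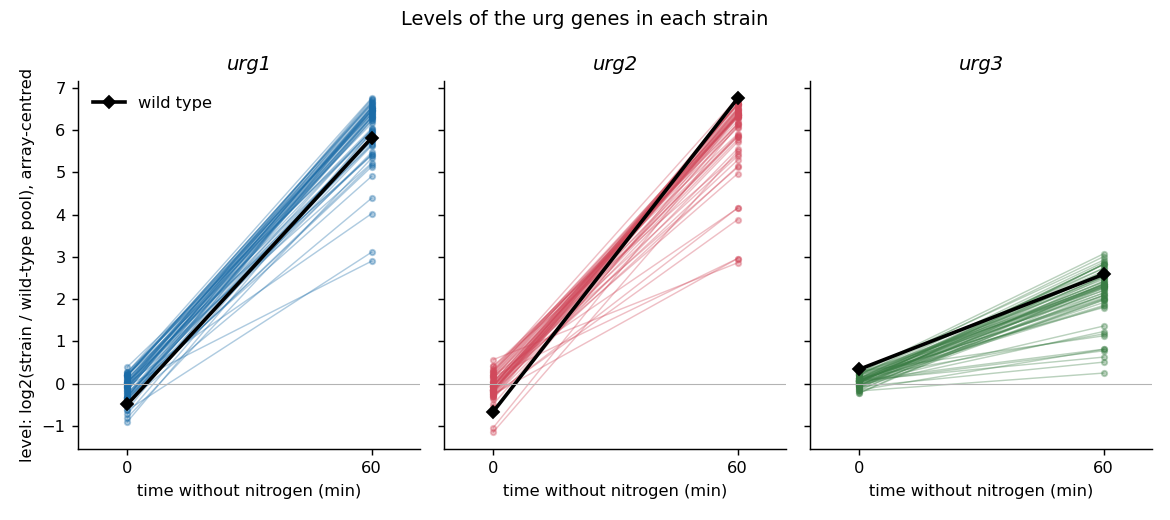
Levels of urg1, urg2 and urg3 (log2 ratio of strain to wild-type pool, array median at 0) against time without nitrogen in min. Each coloured line joins the 2 arrays of 1 deletion strain and the black diamonds are the wild type; the 0 min levels lie around 0, the 60 min medians of the deletion strains are 6.24, 6.31 and 2.30, and a few strains stay far below the others.

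In the wild type the level of urg1 was -0.49 at 0 min and 5.81 at 60 min, a change of 6.30 beside the median of 6.31 in the deletion strains, averaged over probes that changed by 7.39 and 5.22. Array numbers were split at 1500 into an earlier and a later range. The wild-type array is in the later range at 0 min and in the earlier range at 60 min, whereas both arrays of every deletion strain share a range. Wild-type urg2 went from -0.66 to 6.75, a change of 7.41 that exceeds that of every deletion strain but rests on 1 probe at 60 min. Wild-type urg3 went from 0.34 to 2.59, a change of 2.25 beside the median of 2.24. As the mean of probes, the wild-type 0 min level of urg3 was above that of every deletion strain. On neither probe alone was it the highest. It was 0.27 on probe 1 against 0.66 in rst2, and 0.41 on probe 2 against 0.71 in ppk26. The wild-type 0 min level of urg1 was in the lower part of the range. In hal4, measured at 0 min only, the levels were 0.13 for urg1, -0.54 for urg2 and 0.04 for urg3.

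The urg1 and urg2 values at 60 min lie near the top of the range of the table. In 53 of the 63 arrays at 60 min a probe of urg1 or urg2 had the highest ratio of the array. Of the 252 probe values of urg1 and urg2 at 60 min, 158 were above a ratio of 64, and the highest was 114, below the highest ratio of the table, 128.4, which belongs to xan1. Of the 6 values in the whole table that are exactly 0, 5 belong to these genes at 60 min. They are both urg2 probes and 1 urg1 probe in ppk25, 1 urg1 probe in ssp2 and 1 urg2 probe in the wild type. These zeros were taken as missing, so ppk25 has no urg2 value at 60 min and no mean over the 3 genes. Whether bright spots were capped or saturated was not tested, as spot intensities were not used here.

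The 2 probes of urg3 gave different results. Probe 1 changed by -0.09 ± 0.22 (n = 62) and probe 2 by 4.26 ± 1.22, from 0.95 in ppk22 to 6.26 in ppk25. Their difference of 4.35 was the sixth largest of all 4929 features, whose median difference was 0.07. Across strains the changes of the urg3 probes correlated at r = 0.12 (n = 62), against 0.66 for the probes of urg1 (n = 60) and 0.87 for those of urg2 (n = 61). The level of urg3 given above is the mean of a probe near 0 and a probe with a large change, so every urg3 change quoted is smaller than that of probe 2. On probe 2 alone the weakest strains were ppk22 with 0.95, cyr1 with 1.15, lkh1 with 1.26, vps15 with 1.68 and cdk11 with 1.77. By probe, urg1 changed by 6.13 and 6.02, and urg2 by 5.91 and 6.04. The probes differed by over 1 in 6 of 60 strains for urg1, the most in cmk1 with changes of 6.69 and 2.95, and in 4 of 61 for urg2, the most in ire1 with 4.14 and 6.56.

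**Figure D2:**
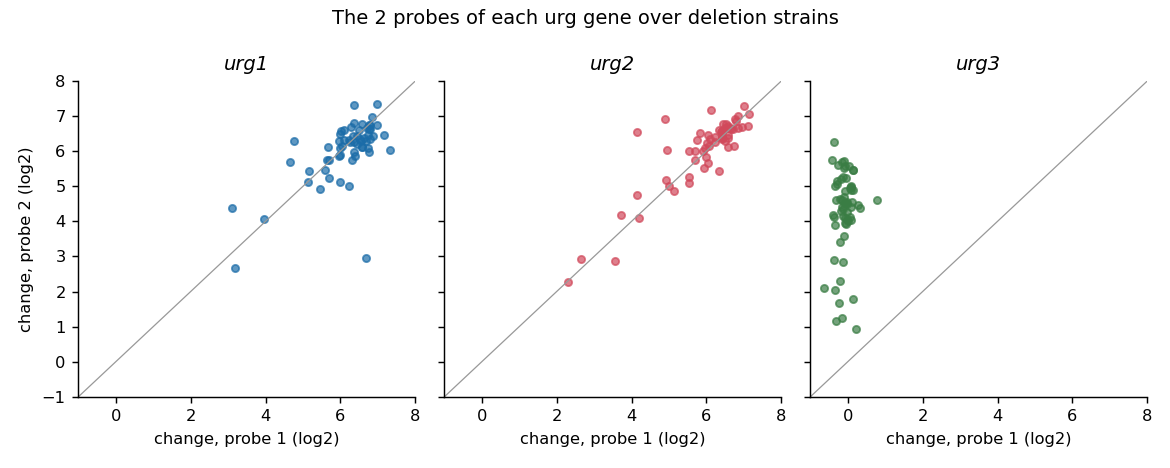
Change of probe 2 against change of probe 1 (log2 ratio at 60 min minus 0 min) for urg1, urg2 and urg3, 1 point per deletion strain, with the line of equal change. Most points of urg1 and urg2 lie near the line, with the widest partings in cmk1 for urg1 (6.69 and 2.95) and ire1 for urg2 (4.14 and 6.56), while for urg3 probe 1 stays around its mean of -0.09 and probe 2 spreads from 0.95 to 6.26.

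Strains were ordered by the mean change over the 3 genes, which was 4.71 ± 0.74 (SD, n = 61 strains), with a median of 4.91, and 5.32 in the wild type. The smallest mean change, 2.15, was in the strain without cyr1, the adenylate cyclase that makes cAMP. Its urg1 changed by 3.74, its urg2 by 2.29 and its urg3 by 0.42. The array labelled ppk22, whose 60 min label is in doubt, followed with changes of 2.94, 3.21 and 0.58 in the same order of genes. The strain without lkh1, a kinase of the LAMMER family, came next with 4.01, 2.79 and 0.56. In these 3 strains the urg1 change lay well below the lower quartile of all strains, which was 5.74.

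The next strains lay closer to the rest for urg1 and further away for urg2 and urg3. The strain without vps15, the regulatory kinase of the phosphatidylinositol 3-kinase complex, had changes of 5.17, 4.15 and 0.73. In cki2, lacking a casein kinase 1, they were 5.52, 3.95 and 0.84. In the array labelled cdk11, also in doubt at 60 min, they were 5.13, 4.45 and 0.96. The mean changes of the strains ranked 7 to 10 were 3.77 in ppk18, 3.89 in gcn2, which lacks the eIF2α kinase, 3.94 in srb10, again a doubted array, and 4.38 in ppk8. The labels of ppk18 could not be checked.

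Some strains were low for a single gene. In atg1, which lacks the kinase that starts autophagy, urg3 changed by only 1.04 while urg1 changed by 5.72 and urg2 by 6.65. In wis4, lacking a kinase of the stress MAP kinase cascade, urg3 changed by 1.26 and urg1 by 6.67. The large urg2 change of atg1 started from the lowest 0 min level of all strains.

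At the other end, the mean change was 5.47 in lsk1, 5.42 in cdr2, 5.37 in tea5, 5.35 in gsk3, 5.33 in rst2 and 5.33 in mde3, a strain whose arrays do not show its deletion. These 6 strains lay closer to each other than the SD of 0.74 over all strains. In lsk1 and rst2 part of the change came from low 0 min levels, which were -1.04 and -0.62 for urg2. The SD over all probes of the rst2 0 min array was 0.82, the highest of all strains, whose mean was 0.36. The other doubted arrays, byr1, ppk33 and atf1, had mean changes of 4.96, 5.07 and 5.12, in the middle and upper part of the order. Of the 2 ranges of array numbers, split at 1500, the later holds 6 strains. These took ranks from 1, in cyr1, to 57, in rst2. The later range is not continuous, as the numbers of ppk18, ppk27 and ppk32 lie well apart from those of cyr1, cgs1 and rst2. In the same order, the mean changes over the 3 genes were 3.77, 4.875 and 4.69, and 2.15, 4.57 and 5.33. The strains cyr1, cgs1 and rst2 are not kinase deletions, and a difference between these sets was not tested. Within the earlier range of 56 strains the mean changes of the 3 genes were 6.12, 6.04 and 2.13, and within the later range of 6 strains they were 5.67, 5.39 and 1.62.

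**Figure D3:**
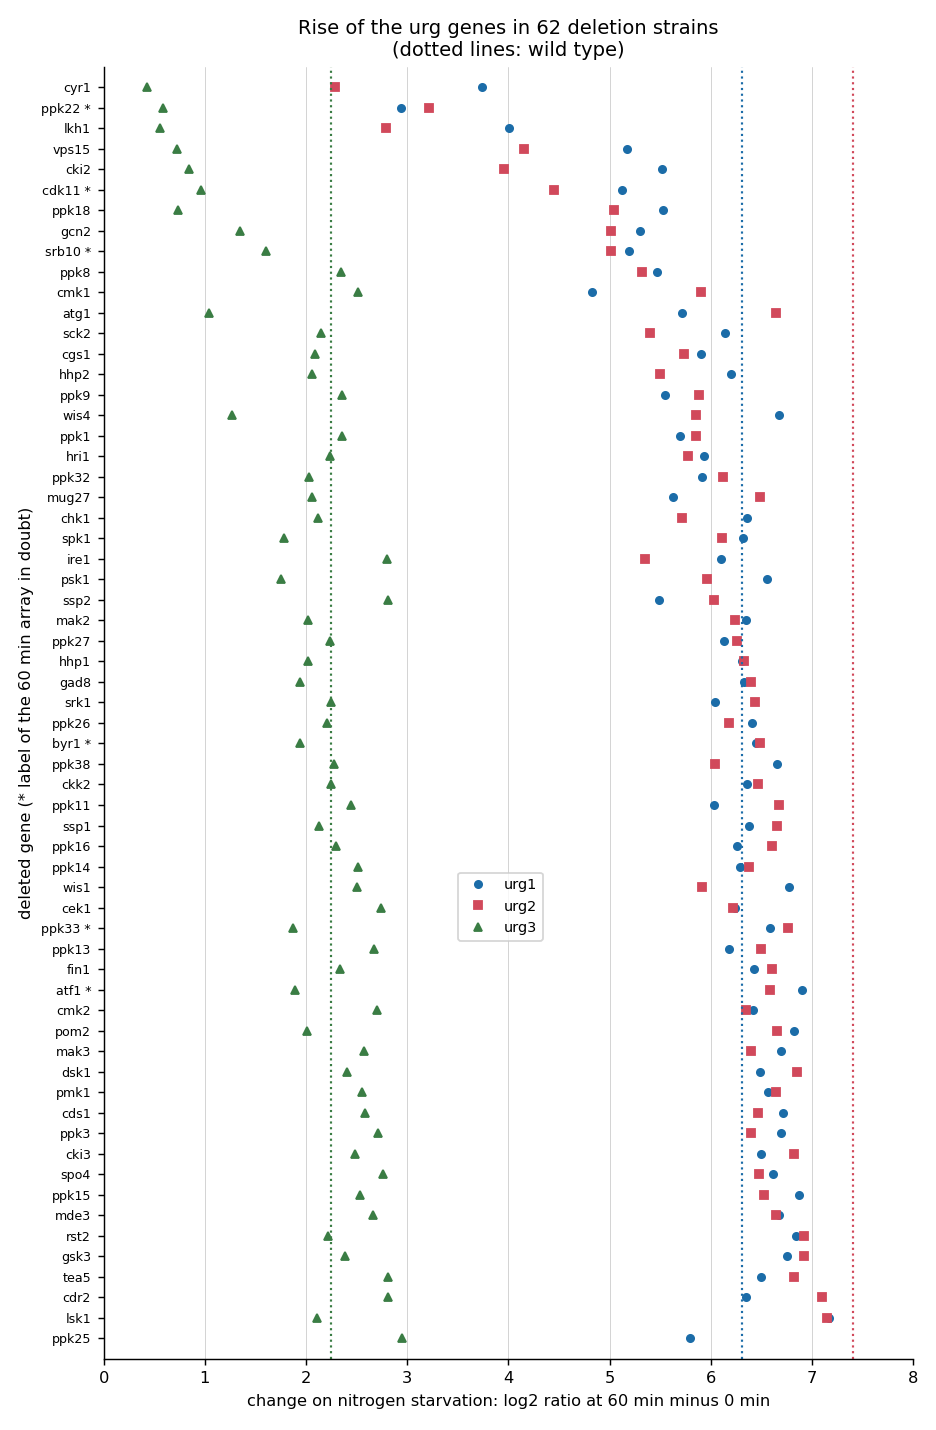
Change of urg1, urg2 and urg3 (log2 ratio at 60 min minus 0 min) in each of 62 deletion strains, ordered by the mean over the 3 genes, with ppk25, which lacks a urg2 value, at the bottom. Dotted lines give the wild type and an asterisk marks a doubted 60 min label. The 6 strains at the top, cyr1 to cdk11, have mean changes of 2.15 to 3.51 against a median of 4.91.

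The 6 weakest strains had a starvation response over the called genes below the average size, as did other strains with larger urg changes. Response size was taken as the slope of a strain's changes on the mean changes of the other strains, over the called genes other than the urg genes and the deleted gene; it averaged 1.00 with a range of 0.66 to 1.22. It was 0.66 in both ppk22 and cyr1, 0.83 in cdk11, 0.84 in vps15, 0.87 in gcn2, 0.88 in lkh1 and 0.91 in cki2. No other strain was near 0.66, and the next smallest slope was 0.81 in chk1, whose arrays do not show its deletion. Slopes like those of vps15 and lkh1 were found in hhp2 at 0.84 and ssp1 at 0.88. The mean urg changes of chk1, hhp2 and ssp1 were 4.73, 4.58 and 5.05, against a lower quartile of 4.595 and a median of 4.91. In gcn2 and ppk18, with slopes of 0.87 and 0.92, the mean urg changes were 3.89 and 3.77, below that quartile. These comparison strains were picked after their values were seen. Across strains the slope and the mean urg change correlated at r = 0.67 and Spearman's rho = 0.48 (n = 61), at r = 0.50 without cyr1 and ppk22, and at r = 0.59 without the doubted arrays (n = 55). Relative to the line of urg change on slope, the lowest strains were lkh1 at -1.75, cyr1 at -1.07, ppk22 at -0.95 and cki2 at -0.90, and lsk1 was highest at 1.09. The SD over all probes of the 60 min array was 0.68 in ppk22, the lowest of all strains, whose mean was 0.98. The part of response size and array spread in the weak urg changes was not tested.

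Genes for other nitrogen sources were set beside the urg genes in the 6 weakest strains, as the number of list members whose change lay below that gene's median over strains. Of the 7 measured genes of purine and urea use these were 7 in cyr1, 6 in ppk22, 6 in lkh1, 5 in vps15, 6 in cki2 and 4 in cdk11. For xan1, which encodes xanthine dioxygenase, the changes in that order were 3.11, 3.65, 4.46, 3.48, 5.01 and 4.24, all below the median of 5.63. Of the 12 genes of nitrogen uptake and assimilation these were 7, 5, 7, 1, 6 and 3, so most members lay at or above their median in vps15 and cdk11. The amino acid permease gene isp5 changed by 4.02, 4.39, 4.74, 7.02, 3.62 and 5.53 in the same order, against a median of 3.76, and the value in vps15 was the highest of any strain. The oligopeptide transporter gene isp4 changed by 2.99, 3.19, 2.30, 4.74, 2.54 and 3.44, against a median of 3.46, so it was above the median only in vps15 of these 6 strains. The share of all features, or of all genes called higher, that lay below their median in these strains is not given here. The counts therefore have no background beside them, and no test was made of these differences between strains.

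The 3 genes lie together on chromosome I, in the order urg2, urg3, urg1 of the gene table of assembly ASM294v3. Of the 5 measured genes before urg2 none was called higher and none lower, and of the 5 after urg1, 4 were called higher. A call required an adjusted p under 0.05 (limma, Benjamini-Hochberg over all 4929 features) and a change of at least 2-fold; 7.53% of all features were called higher and 8.76% lower, together 16.3%. By limma's unadjusted or adjusted p alone, 2 of the 5 genes before urg2 were higher and 2 lower, beside 46.9% of all features higher and 40.5% lower by adjusted p alone. Before urg2, the nicotinic acid transporter gene tna1 changed by -0.43 ± 0.28, itt1 by 0.16 ± 0.23, med6 by 0.07 ± 0.29, SPAC1002.20 by 0.30 ± 0.55 and psu1 by -0.71 ± 0.42 (n = 62 each).

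After urg1, the change of toe1 was 1.45 ± 0.51, from 0.37 in cyr1 to 3.32 in mde3 (limma adjusted p = 1.66e-32, higher in 62 of 62 strains). For uck2 it was 4.12 ± 1.37, from 0.67 in cyr1 through a median of 4.49 to 6.51 in ppk25 (limma adjusted p = 2.20e-34, 62 of 62). For fur4, the uracil permease gene, it was 3.50 ± 0.70, from 0.48 in cyr1 to 4.64 in mde3 (limma adjusted p = 2.21e-47, 62 of 62). SPAC1399.02 was not called, at 0.03 ± 0.35 (limma adjusted p = 0.47), and SPAC1399.01c beyond it changed by 4.37 ± 0.80, from 0.85 in cyr1 to 5.52 in ppk25 (limma adjusted p = 7.93e-50, 62 of 62). The strain without cyr1 thus had the smallest change of all 4 called neighbours as well as of urg2 and of the probe mean of urg3. On urg3 probe 2 alone the array labelled ppk22 was lower, at 0.95 against 1.15 in cyr1. In the wild type these genes changed by 2.22 for toe1, 5.04 for uck2, 4.15 for fur4 and 4.75 for SPAC1399.01c.

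**Figure D4:**
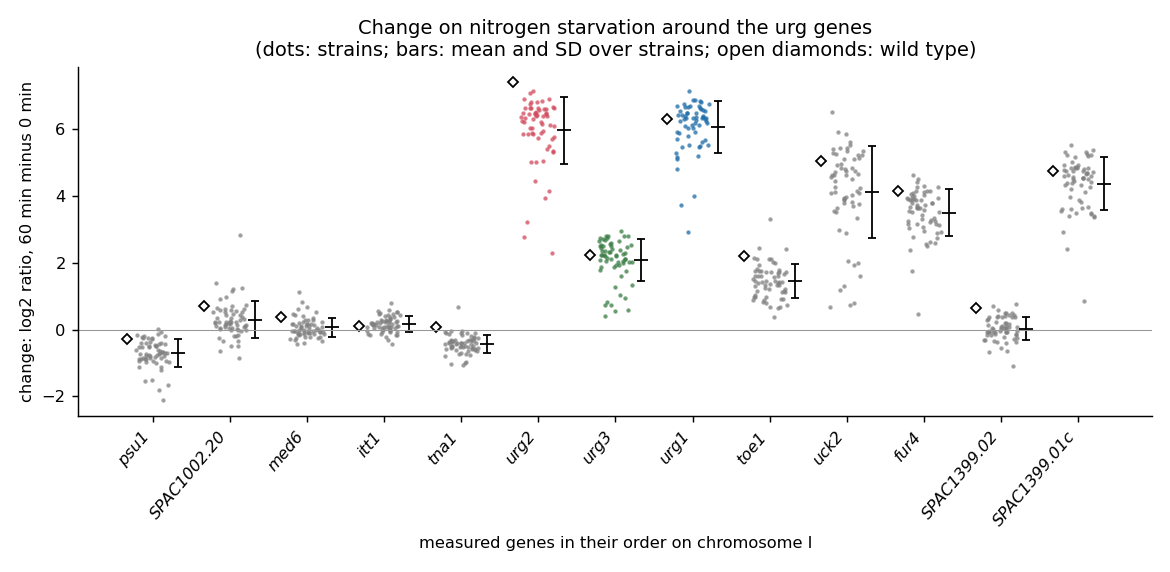
Change (log2 ratio at 60 min minus 0 min) of the 3 urg genes and of the 5 measured genes on each side, in chromosome order and not to scale; dots are deletion strains, bars the mean and SD over them, and open diamonds the wild type. The means of the genes before urg2 lie between -0.71 and 0.30, and 4 of the 5 genes after urg1 have means from 1.45 to 4.37.

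Across strains the changes of urg1 and urg2 correlated at r = 0.85 and rho = 0.68 (n = 61), those of urg2 and urg3 at r = 0.76 and rho = 0.44 (n = 61), and those of urg1 and urg3 at r = 0.63 and rho = 0.33 (n = 62). These points share arrays, labelling and centring, and no p is given. Of the 10 strains with the smallest change, urg1 and urg2 shared 8, urg2 and urg3 shared 8, and urg1 and urg3 shared 6. Without the 2 strains farthest from the median on the first gene of the pair, r was 0.77 for urg1 and urg2, 0.68 for urg2 and urg3 and 0.50 for urg1 and urg3. At 0 min the levels of the members correlated weakly, between 0.08 and 0.35.

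The neighbour uck2 was closer to urg3 than the other members were, a pair singled out after its values were seen. Their changes correlated at r = 0.92 and rho = 0.84 (n = 62), and all 10 of the lowest strains of urg3 were the 10 lowest of uck2: cyr1, lkh1, ppk22, vps15, ppk18, cki2, cdk11, atg1, wis4 and gcn2. Without cyr1 and lkh1 r was 0.90, and without the doubted arrays it was 0.92 (n = 56). The correlation of urg3 with fur4 was 0.75, with SPAC1399.01c 0.76 and with toe1 0.42.

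**Figure D5:**
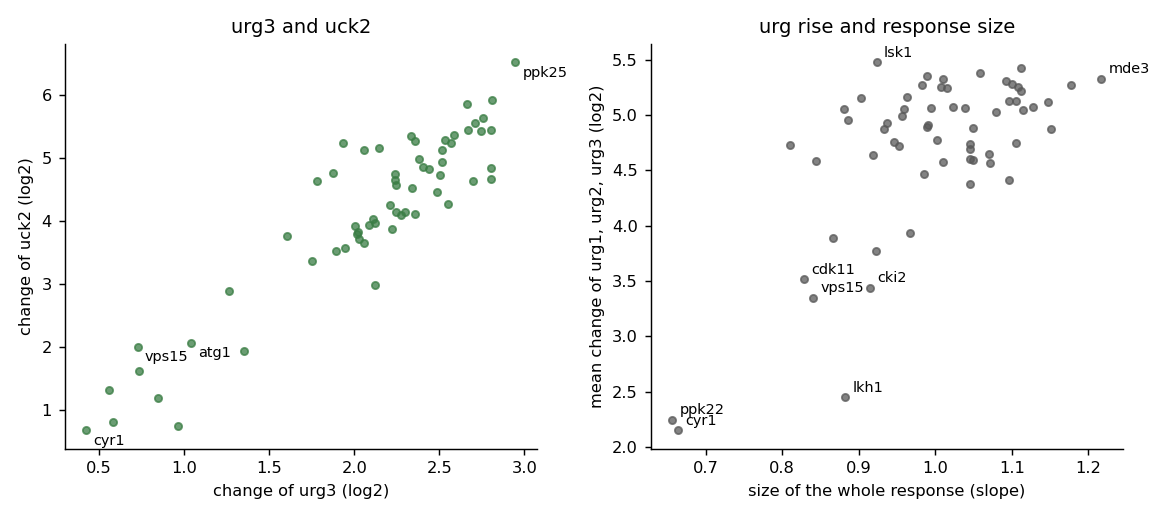
Left, change of uck2 against change of urg3 (log2 ratio at 60 min minus 0 min). Right, mean change of the 3 urg genes against the size of the whole response (slope over the called genes, no unit). Each point is 1 deletion strain. The left pair correlates at r = 0.92 (n = 62), with cyr1 lowest for uck2 and for the mean of the urg3 probes. The right pair correlates at r = 0.67 (n = 61), with cyr1 and ppk22 at the low end and lkh1 far below strains of similar slope.

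Over all measured features, the 10 whose change was most like the mean urg change, by Pearson's r over 61 strains, were yak3 and SPAC521.03 at 0.87, the allantoicase gene dal2 at 0.86, SPCC757.13, SPAC29B12.14c and the chitin deacetylase gene cda1 at 0.82, uck2 at 0.81, sen1 and thi7 at 0.80, and SPAC1039.02 at 0.78. The eleventh, uro1, had 0.77. The ribosomal protein genes rpl4301 at -0.67, and rpl2302 and rps601 at -0.65, were least like it by Pearson's r. Their ranks from the lowest by Spearman's rho were 80, 33 and 91 in that order. The median r over features was near 0. By Spearman's rho 6 of the 10 remained among the first 10, and without the doubted arrays all 10 did.

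Genes of pyrimidine salvage were higher after starvation and some of pyrimidine synthesis lower. These and the following lists were chosen with earlier results of these data known, so their counts are a description. The salvage gene fur4 is also among the called neighbours given above. Of 7 measured salvage genes 4 were called higher and none lower, with a median change of 2.46, where 7.53% of all features were called higher and the median change of all was 0.04. Those called were SPBC800.11 at 4.45 ± 0.82, fur4 at 3.50 ± 0.70, the uridine hydrolase gene urh1 at 3.40 ± 0.89 and the cytidine deaminase gene cdd1 at 2.46 ± 1.15 (n = 62 each, higher in at least 61 strains). The genes SPCC965.14c at 0.84, urk1, for uridine kinase, at 0.79 and urh2 at 0.23 were below 2-fold. Of 6 measured genes of the pyrimidine synthesis list 2 were called lower, beside 8.76% of all features, and none higher, with a median of -0.79. The dihydroorotate dehydrogenase gene ura3 fell by 2.56 ± 0.42 and ura1, which encodes the enzyme of the first steps, fell by 2.04 ± 0.32, both in 62 of 62 strains. The others were ura5 at -0.97, ura4 at -0.60, ura2 at -0.25 and ura6 at 0.17, of which ura4 turned to 0.41 under quantile normalization.

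Genes for the use of purines and urea had the highest median of the lists, 3.94, with 6 of 7 measured members called higher, beside 7.53% of all features. The 4 that changed most were xan1 at 5.47 ± 0.74, uro1 at 4.99 ± 0.73, dal2 at 4.41 ± 1.17 and dal51, which encodes an allantoate permease family protein, at 3.94 ± 0.57. Of 12 genes of nitrogen uptake and assimilation 6 were called higher and 1 lower, beside 7.53% and 8.76% of all features, with a median of 1.13. The permease gene isp5 changed by 3.84 ± 0.88, the oligopeptide transporter gene isp4 by 3.54 ± 0.99, the proline permease gene put4 by 2.83 ± 0.59 and the ammonium transporter gene amt1 by 1.67 ± 0.47. The member called lower was another ammonium transporter gene, amt2, at -1.23 ± 0.29, which was named after its value was seen. The changes of urg1 and urg2 exceeded the mean change of every gene in these lists.

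In the pathway that shares an enzyme family with urg1, no measured gene had a mean change of 2-fold. None of 7 riboflavin synthesis genes was called by limma with the 2-fold limit, beside 16.3% of all features, and their median was 0.25. By unadjusted or adjusted p alone, 4 were higher and 2 lower, again beside 46.9% and 40.5% of all features by adjusted p alone. The largest changes were 0.67 for rib5, which encodes riboflavin synthase, 0.55 for the riboflavin kinase gene fmn1, 0.50 for rib1 and -0.42 for rib4. Of 7 regulators of the TOR kinase and GATA factor pathway, 1 was called higher, beside 7.53% of all features. With 7 genes in each list, both counts lie near the shares over all features. The gene called was tsc1 at 1.10 ± 0.31, which encodes a partner of the TOR brake complex and lay below 2-fold, at 0.86, under quantile normalization. It was followed by the TOR kinase genes tor2 at 0.46 and tor1 at 0.38, and by tsc2 at 0.24. The median of the 7 was 0.24.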

How the data were processed

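Two-colour arrays compared strain RNA with a pool of wild-type RNA. The deposited table holds the authors' linear ratio of Cy5 to Cy3 for 9858 probes, with the dyes given per the labels. How background and scale were treated is not stated per the labels. The median ratio of an array lay between 0.932 and 1.09. Signal over background is not given. The 6 values of exactly 0 were set to missing.

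Probe names come from the platform annotation, updated by gene identifier to assembly ASM294v3: 9632 had 1 symbol, 44 several and 182 none, and 4791 of 4816 named genes matched. Coordinates served only to order neighbouring genes, and sequences are not used here. Log2 ratios were centred on the array median and the probes of a gene averaged (Python 3.11.15, numpy 2.4.6, pandas 2.3.3). Pairs of 0 and 60 min arrays were formed by the strain named in the labels; strains are called by the current symbol of the deleted gene (gsk3 for skp1, srb10 for prk1). With R 4.3.3 and limma 3.58.1 (lmFit, eBayes), the change per strain was tested over 62 strains, with Benjamini-Hochberg adjustment over 4929 features; the fit was tested on simulated data. The test treats strains as the samples, so it describes the change common to them. Nothing says that arrays came from separate cultures beyond the strain, and p-values measure the spread between these samples.

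Named were urg1, urg2 and urg3, the 5 measured genes on each side, all pyrimidine list members, the 4 largest changes of each other list, the 10 most and 3 least similar genes, the 6 weakest and 6 strongest strains, and the doubted arrays; atg1, wis4, ppk18, gcn2, ppk8, chk1, hhp2, ssp1, cmk1 and ire1 are given beyond this rule, after their values were seen. Of the listed symbols 1 salvage, 1 synthesis and 4 purine and urea names had no match. Members and lists were chosen with earlier results of these data known. Alternatives were no centring, quantile normalization, each probe alone, no pairing, adjusted p alone, and leaving out strains; leaving out every strain whose arrays do not show the deletion was added after seeing the data.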

Additional observations from a re-analysis of the deposited data

How the results depend on the processing

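The weakest 6 strains were the same 6 without centring and on probe 2 alone, and 5 of the 6 were shared under quantile normalization, on probe 1 alone and relative to the whole response. The strongest 6 were less stable: 2 were shared under quantile normalization, 1 on probe 1 alone and 2 relative to the whole response. Quantile normalization compressed the changes to 4.01 for urg1, 3.88 for urg2 and 1.25 for urg3. For urg3, probe 1 alone gave -0.0894 and probe 2 alone 4.26. Of all features 803 were called; quantile normalization called 478 and adjusted p alone 4308. Without the replicate block, that is without pairing by strain, 803 were called. By adjusted p alone, 7 salvage genes were higher, 1 synthesis gene was higher and 5 lower, 4 riboflavin genes were higher and 2 lower, and 5 regulators were higher and 2 lower. Of all features 46.9% were higher and 40.5% lower by adjusted p alone. Under quantile normalization 0 regulators were higher, as tsc1 fell below 2-fold. By Spearman correlation 6 of the 10 similar genes were shared. The sign turned under quantile normalization for ura4 (0.41), gdh2 (0.26) and rib7 (0.34), for ure4 without the doubted arrays (-0.0012) and for glt1 without the non-kinase deletions (0.0080). The cause of these differences was not tested. Under quantile normalization the purine and urea list had 5 genes called higher, without ure2 (0.99), and the uptake list 4, without per1 (0.85) and gln1 (0.31). Of all features 3.55% were called higher under quantile normalization. The number of arrays, 1 per strain and time, limits the precision of each strain's value.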
